A study of Mus musculus with 3 samples.

Results

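The 42 G2 and mitosis genes described here were chosen as a module by name, by a rule that uses no measured value, though with earlier results of these data known. All 42 were among the 13891 genes of the expression table, and they were followed across stem-like, secretory progenitor-like, early enterocyte-like and mature cells of the mouse small intestine and across 3 libraries. The mice were male ICR animals, an outbred stock, treated from 3 weeks of age. The AOS 0 group received vehicle water only. The B + A 0 group received a single injection of 40 mg/kg busulfan, an alkylating chemotherapy drug, and then water by gavage. The B + A 10 group received the same busulfan injection and then 10 mg/kg alginate oligosaccharides (AOS, short sugar chains cut from a seaweed polymer) by gavage each day for 2 weeks. Cells of 6 mice were combined into 1 library per group, so that the groups could not be tested against each other. Every interval given below is a 95% interval that covers counting error only, not the spread between mice. Intervals of summed UMIs leave out the spread between cells as well. Where 3 values stand together below, they are in the order of vehicle, busulfan alone, and busulfan with AOS. The comparisons asked how far the division program of the crypt differed after busulfan, and after busulfan with AOS.

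A cell that has copied its DNA enters G2, in which cyclin-bound Cdk1 builds up, and then mitosis, in which the chromosomes condense, attach to a spindle and are pulled apart. The anaphase-promoting complex then marks cyclin B and securin for destruction, and the cell divides in cytokinesis. Most of the genes involved are transcribed in a wave that starts late in S phase. In the small intestine this wave belongs to the crypt, where Lgr5- and Olfm4-positive stem cells and their progeny divide, while cells on the villus no longer do. The wave is read through promoters that hold 2 short elements, the cell cycle genes homology region (CHR, TTTGAA) and CCAAT boxes.

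RefSeq promoters of build GRCm38.p6, 250 bases before to 50 after the start, were on hand for 38 of the 42 members and not for Ccna2, Aurkb, Smc4 and Tpx2. The CHR letters TTTGAA, read on both strands, were in 29 of the 38, or 76.3%, against 18.1% of 27025 promoters of the same length. CCAAT, on both strands, was in 29 of the 38 too, against 37.9% of all promoters, and both were in 25 members, or 65.8%, against 7.12%. The motif nearest the start lay within 50 bases of it in 23 of the 29 members with a CHR, and where both motifs were present the closest pair was a median of 25.5 bases apart. These matches are a description of letters and not of bound sites. The promoters of 4 members are printed because they are used below as examples of members high in dividing cells and of the exception. Ube2c (chr2:164769679-164769978, plus strand) and Cdc20 (chr4:118437294-118437593, minus strand) belong to the anaphase-promoting complex, Top2a (chr11:99024140-99024439, minus strand) untangles DNA, and Tubb4b (chr2:25224653-25224952, minus strand) is a beta-tubulin. Capitals mark TTTGAA and CCAAT or their reverse complements, and each sequence runs in the direction of its gene.
Ube2c: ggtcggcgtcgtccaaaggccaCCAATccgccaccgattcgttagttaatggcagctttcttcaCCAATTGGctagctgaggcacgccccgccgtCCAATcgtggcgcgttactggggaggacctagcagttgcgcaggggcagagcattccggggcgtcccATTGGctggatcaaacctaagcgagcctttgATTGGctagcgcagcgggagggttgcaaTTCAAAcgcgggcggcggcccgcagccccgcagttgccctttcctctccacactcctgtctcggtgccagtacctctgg
Cdc20: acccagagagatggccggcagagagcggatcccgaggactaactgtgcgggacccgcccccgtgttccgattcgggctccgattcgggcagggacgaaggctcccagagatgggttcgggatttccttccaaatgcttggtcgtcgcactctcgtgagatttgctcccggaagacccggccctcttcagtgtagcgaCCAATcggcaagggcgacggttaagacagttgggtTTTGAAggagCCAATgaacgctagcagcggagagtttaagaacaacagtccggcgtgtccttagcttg
Top2a: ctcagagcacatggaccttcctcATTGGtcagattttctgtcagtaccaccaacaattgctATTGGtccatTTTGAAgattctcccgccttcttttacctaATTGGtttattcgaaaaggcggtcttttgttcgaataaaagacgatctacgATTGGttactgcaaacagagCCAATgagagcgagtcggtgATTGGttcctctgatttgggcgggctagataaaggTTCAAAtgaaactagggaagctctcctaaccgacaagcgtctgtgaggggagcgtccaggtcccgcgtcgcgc
Tubb4b: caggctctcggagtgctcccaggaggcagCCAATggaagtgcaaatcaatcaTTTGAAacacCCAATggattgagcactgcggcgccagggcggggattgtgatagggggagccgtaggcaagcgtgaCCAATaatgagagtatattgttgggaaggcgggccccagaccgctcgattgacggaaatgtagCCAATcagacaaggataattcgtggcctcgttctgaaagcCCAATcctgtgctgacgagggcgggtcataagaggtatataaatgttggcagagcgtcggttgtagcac
The CHR lay 26 bases before the start in Ube2c and 15 bases before it in Cdc20. In Tubb4b it lay 195 bases before the start, and of the CHR nearest to each start this was the farthest among the members.

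The libraries held 4106 cells for AOS 0, 3195 for B + A 0 and 5352 for B + A 10, with median depths of 7371, 6407 and 3505 UMIs per cell, so that depth was lowest in the library with AOS. The lower limit of depth differed as well, with 3155, 3929 and 2051 UMIs in the shallowest cell of each library. Between 17 and 34 cell barcodes were shared by any 2 libraries. Clustering, without 282 cell cycle genes, gave 21 clusters, of which 19 were named from marker genes. The stem-like class was made of 2 clusters, both led by Olfm4, with 1606 cells, and Olfm4 was at 3892 counts per 1000000 UMIs (CPM) in it against 43.1 in mature enterocyte-like cells. The secretory progenitor-like class had 977 cells in 2 clusters, one led by Ccl9, Agr2 and Reg4 and one by Slpi, Creb3l1 and Spdef. The early enterocyte-like class had 1668 cells, again in 2 clusters, one led by Gsdmc2 and Gsdmc4, and one by Rbp7 and Dmbt1 together with the hemoglobin genes Hba-a1 and Hbb-b1. A cluster of 920 cells led by 2810417H13Rik, Ncl and Csrp2 had none of the class markers among its leading genes and stayed unnamed, and it is called the Ncl-led cluster here. Its leading genes 2810417H13Rik and Dtymk, both tied to DNA replication, were not among the 282 genes left out.

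The members were higher in stem-like than in mature enterocyte-like cells, and were not confined to stem and progenitor classes. Their summed level was 47.3 UMIs per 10000 in stem-like cells (46.9 to 47.7) and 6.35 in mature enterocyte-like cells (6.24 to 6.45). That ratio was 7.46 with all members and 19.1 without Tubb4b. On the log2 scale it was 3.11, 2.76 and 2.71 in the 3 libraries, a mean of 2.86 ± 0.22 (SD, n = 3 libraries). Here and below, such an SD is taken over the 3 treatment groups and is not a spread over replicates. The highest sum of a cluster lay outside the stem-like class, 57.7 per 10000 in the Ncl-led cluster. Of the stem-like clusters, that led by Olfm4, Clca3b and Phgdh was at 53.8 and that led by Olfm4, Lgr5 and Sox4 at 38.7. The Rbp7- and Dmbt1-led early enterocyte-like cluster was at 51.9. Genes tied to replication could still shape the Ncl-led cluster, so its high sum is not independent of the clustering. Secretory progenitor-like cells were at 35.2 per 10000, T cell-like cells at 32.8 and enteroendocrine-like cells at 23.6. The Gsdmc4-led early enterocyte-like cluster was at 10.8, goblet-like cells at 7.21 and Paneth-like cells at 5.67. Early enterocyte-like cells were thus made of 1 cluster with a member level near that of stem-like cells and 1 with a low one. This depended on the clustering, since the log2 ratio of the whole class to stem-like cells was -0.69, but -1.54 without joining the libraries and -2.28 with cell cycle genes kept.

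**Figure D1:**
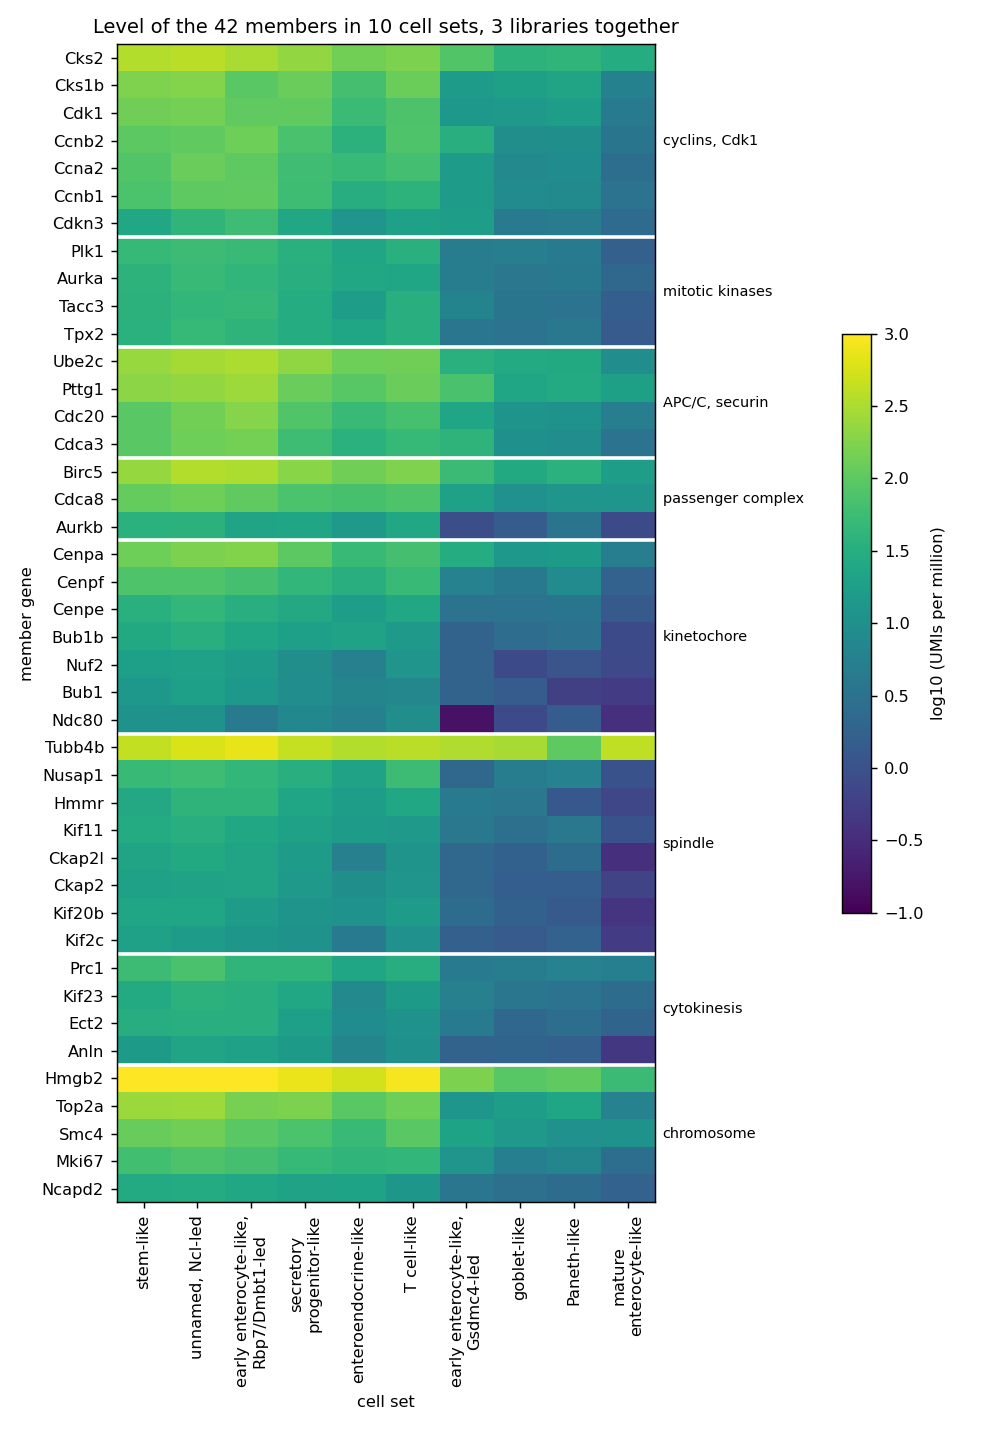
Levels of the 42 members (rows, by role) in 10 cell sets (columns), as log10 of CPM over the 3 libraries together. Rows other than Tubb4b are brighter in the 6 columns from stem-like to T cell-like cells than in mature enterocyte-like cells.

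Read gene by gene, 41 of the 42 members were over 4-fold higher in stem-like than in mature enterocyte-like cells, against 15.5% of the 9519 genes tested by the same rule. The median log2 ratio of the members was 4.71, against 0.23 for all genes tested. The largest ratios were those of Ckap2l, a spindle protein, at 61.3-fold, Kif20b, a kinesin, at 55.0-fold, and Nusap1, which bundles spindle microtubules, at 50.4-fold. For Ckap2l that was 21.96 CPM in stem-like cells against 0.358 in mature cells, the latter from 8 UMIs. The smallest ratios were those of Tubb4b, Cdca8 and Cdkn3. Tubb4b was at 427 CPM in stem-like cells (415 to 439) and at 410 in mature enterocyte-like cells (401 to 418), a log2 ratio of 0.06 that was 0.04 ± 0.09 (SD, n = 3 libraries). It was detected about as often in both, with a UMI in 32.1% of stem-like and 32.6% of mature enterocyte-like cells after thinning each cell to 1000 UMIs. Cdca8, a subunit of the chromosomal passenger complex, was 9.21-fold higher in stem-like cells, and Cdkn3, a phosphatase that acts on Cdk1, 9.90-fold.

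Among the regulators of Cdk1, Cks2 and Cks1b, its small binding partners, had the most UMIs, with 345 and 166 CPM in stem-like cells and 29.8 and 5.82 in mature cells. Cyclin B2 (Ccnb2) was at 98.6 in stem-like and 3.62 in mature cells. Of the mitotic kinases, Plk1 was 28.5-fold and Aurka 17.0-fold higher in stem-like cells. Ube2c, the ubiquitin-conjugating enzyme of the anaphase-promoting complex, was 26.6-fold higher, and Pttg1, securin, 10.8-fold. Birc5 (survivin), which targets Aurora B to centromeres, was 14.0-fold higher, at 233 against 16.6 CPM.

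Cenpa, the histone that marks centromeres, and Cenpf, a kinetochore protein, were 25.9- and 43.5-fold higher in stem-like cells. Prc1, which holds the central spindle together, and Kif23, its kinesin partner in cytokinesis, were 10.2- and 10.7-fold higher. Among the chromosome proteins, Hmgb2 supplied 20.7% of all 194929 member UMIs and was at 1119 CPM in stem-like cells against 52.6 in mature cells. Top2a was 42.2-fold and Mki67 (Ki-67) 22.5-fold higher. All 42 intervals of the ratio lay above 1, that of Tubb4b included, whose ratio was 1.04. The SD over the 3 libraries of the log2 ratio was 0.13 for Cks2 and 1.60 for Ckap2l, whose counts in mature cells were the lowest of the 3 members with the largest ratios.

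The members gathered in the same cells. Shares of this kind were not computed for other genes, so gathering within a cell class is not told apart from differences between classes. After thinning to 1000 UMIs, the tenth of all cells with the most UMIs of the other 41 members held a median of 46.4% of a member's own UMIs. The share was 61.7% for Nusap1, 55.3% for Ube2c and 35.8% for Ncapd2, a condensin subunit, and 18.7% for Tubb4b. A Top2a UMI was seen in 27.7% of those cells and in 3.94% of the rest. A cell was called high with at least 5 member UMIs of 1000. This held for 38.7% of stem-like cells (36.3 to 41.2), 58.2% of the Ncl-led cluster, 50.5% of the Rbp7- and Dmbt1-led cluster, 25.4% of secretory progenitor-like cells and 0.112% of mature enterocyte-like cells (0.0365 to 0.262). Median depth before thinning was 5908.5 UMIs per cell in stem-like and 4369 in mature enterocyte-like cells. Of the 1606 stem-like cells, 140 lay exactly at 5 and 175 at 4, so the class is a range and not a type. High stem-like cells were deeper than the others, with a median of 6845.5 against 5456.5 UMIs.

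The Rbp7- and Dmbt1-led early enterocyte-like cells had a member sum close to that of stem-like cells, with members on both sides. In all 3 libraries 14 members were higher in them, against 37.5% of 8531 genes, and 13 were lower, against 33.1%. Both counts are near the background, so that they say nothing of the members as a group. The log2 ratio was 1.21 ± 0.14 for Cdkn3, 0.84 ± 0.17 for Cdc20, 0.76 ± 0.08 for Tubb4b and 0.64 ± 0.24 for Cdca3, which brings substrates to destruction at mitotic entry (SD, n = 3 libraries). Cyclin B1 (Ccnb1) was higher by 0.45 ± 0.13, and Birc5 by 0.46 ± 0.16. On the other side the ratio was -0.77 ± 0.24 for Cks1b, -0.73 ± 0.26 for Top2a, -0.67 ± 0.22 for Aurkb, the kinase of the passenger complex, and -0.43 ± 0.28 for Cdk1. The list of 70 measured DNA replication genes was at 16.3 UMIs per 10000 in this cluster and at 42.4 in stem-like and 40.8 in Ncl-led cells. The replication genes were thus lower in these cells at a like member sum. The clusters were defined on genes of the same cells, so these ratios carry no test.

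**Figure D2:**
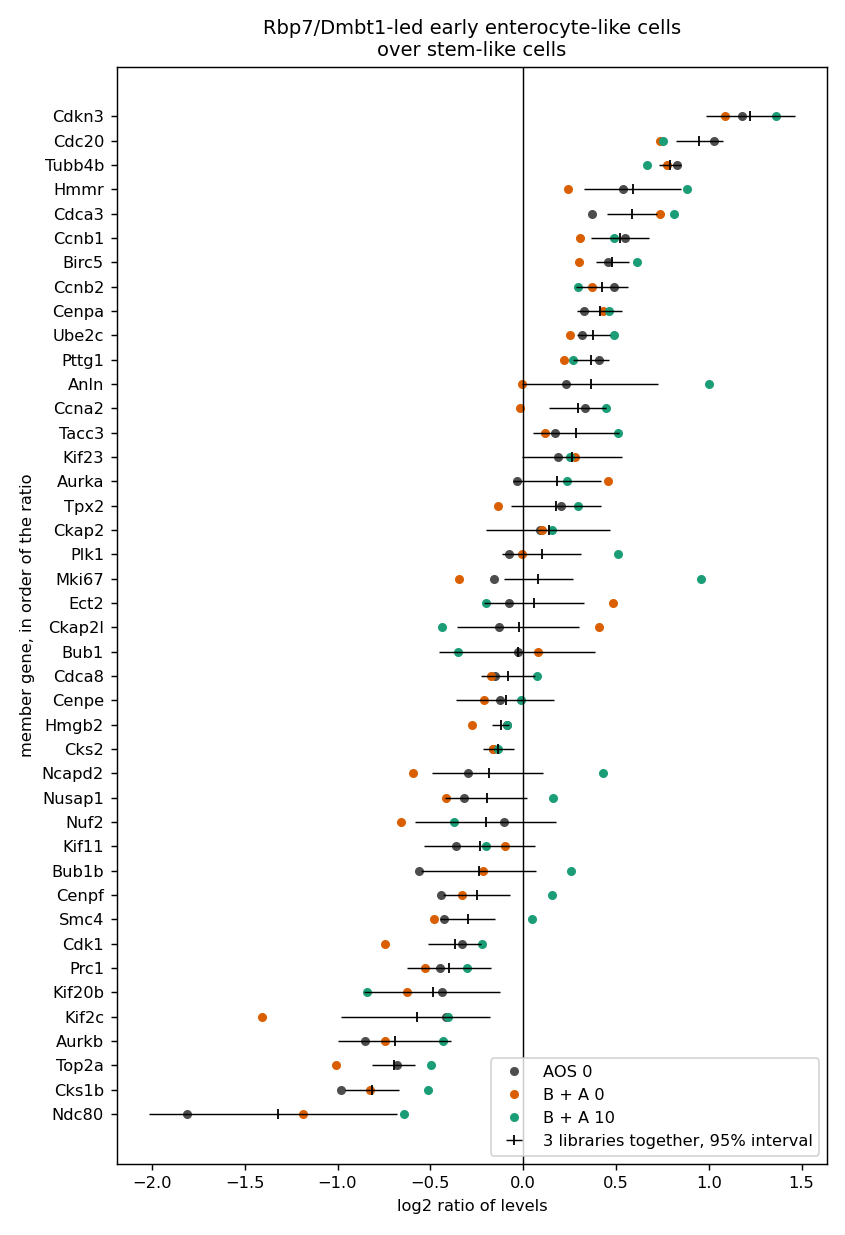
Log2 ratio of each member's level in Rbp7- and Dmbt1-led early enterocyte-like cells over stem-like cells, one point per library and a tick with its 95% counting interval for the 3 libraries together. For the 3 libraries together Cdkn3, Cdc20 and Tubb4b have the highest ratios, and Ndc80, Cks1b and Top2a the lowest.

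In secretory progenitor-like cells most members were lower than in stem-like cells. The ratio was below 1 in all 3 libraries for 37 of the 42 members, against 54.6% of 8810 genes, and above 1 in all 3 for none, against 1760 of these genes, or 20%. The ratio of sums was -0.46 ± 0.11 on the log2 scale (SD, n = 3 libraries). The level differed between the class's clusters, 46.7 per 10000 in the one led by Slpi, Creb3l1 and Spdef and 24.5 in the one led by Ccl9, Agr2 and Reg4, with median depths of 10277 and 5914 UMIs. Of their cells, 26.8% and 0.628% were among the 5% of all cells with the highest doublet scores, whose part in the levels was not tested. T cell-like cells, led by Gzma, Gzmb and Cd7, had 35 members lower than stem-like cells in all 3 libraries, against 40.8% of 8191 genes. Fabp1, an enterocyte gene, was at 3419 CPM in them against 452 in stem-like cells, and its part in their member levels was not tested.

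Between libraries the members were lower after busulfan, by small factors that in stem-like cells turned with depth, as given further on. In stem-like cells their sum was 52.3 UMIs per 10000 with vehicle (51.6 to 52.9), 45.5 with busulfan (44.8 to 46.2) and 41.7 with busulfan and AOS (40.9 to 42.4). The log2 ratio was -0.20 for B + A 0 to AOS 0 (-0.23 to -0.17), -0.13 for B + A 10 to B + A 0 (-0.16 to -0.09) and -0.33 for B + A 10 to AOS 0 (-0.36 to -0.30). The 3 comparisons share libraries. In all cells together the sums were 26.2, 21.3 and 20.5 per 10000. In mature enterocyte-like cells they were 6.07, 6.74 and 6.38, in another order. Stem-like cells were 12.4%, 13.5% and 12.4% of the libraries. Early enterocyte-like cells were 15.4%, 11.3% and 12.6%, and Paneth-like cells, which are deep and low in members, 2.34%, 5.32% and 2.99%. Paneth-like cells held 2401137, 4391536 and 2054984 of the 35258551, 26044381 and 23003083 UMIs of the libraries. The part of these shares in the sums of all cells was not tested. Fewer dividing cells and less of these RNAs per dividing cell cannot be told apart in such sums.

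**Figure D3:**
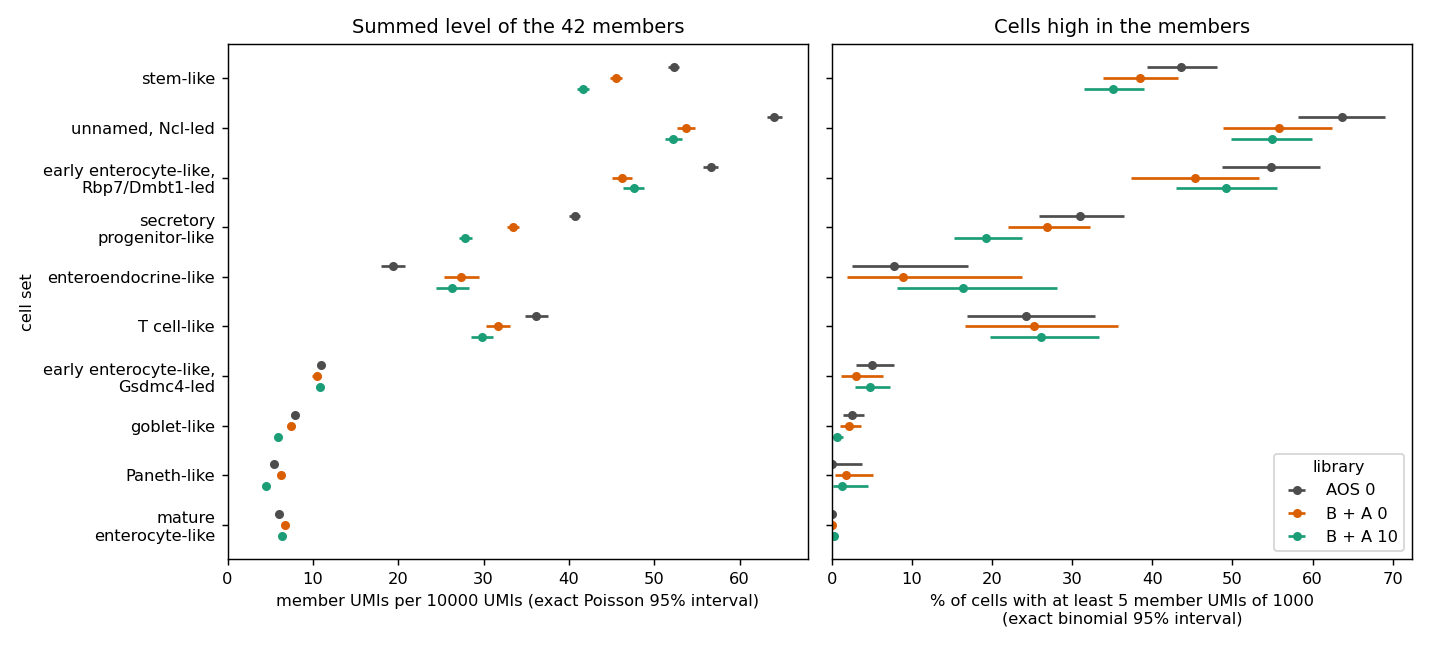
Left, member UMIs per 10000 UMIs, and right, the share of cells with at least 5 member UMIs of 1000, in 10 cell sets (rows) and 3 libraries (colors), with exact 95% intervals. AOS 0 lies to the right of both busulfan libraries in the stem-like, Ncl-led, Rbp7- and Dmbt1-led, secretory progenitor-like, goblet-like and Gsdmc4-led sets. In T cell-like cells it does so on the left only. It does not in enteroendocrine-like, Paneth-like or mature enterocyte-like cells. In the Gsdmc4-led set the intervals of the libraries overlap. The goblet-like order on the left is that of the cluster led by Muc2, Fcgbp and Fer1l6 (15.5, 14.2 and 8.69), with 55.5% of its cells among the highest doublet scores. In the other goblet-like clusters the summed level is lowest in AOS 0.

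Few members passed a 1.5-fold difference in stem-like cells. Of 41 members with at least 100 UMIs over both libraries, 1, Tacc3, which stabilizes spindle microtubules, was past it and lower in B + A 0 than AOS 0, against 2.61% of 6737 genes. None was past it and higher, against 2.03%. For B + A 10 to B + A 0, none of 38 members was past it in either direction, against 1.26% of 5932 genes lower and 1.5% higher. For B + A 10 to AOS 0, 8 of 41 were lower, or 19.5%, against 4.79% of 6623 genes. Those 8 were Ube2c, Smc4, Plk1, Mki67, Hmmr, Aurkb, Cdkn3 and Kif20b. None was higher, against 3.40%. These calls depended on the processing. The call of B + A 0 to AOS 0 was lost at resolution 0.4, with cell cycle genes kept in the clustering, with cells assigned one by one and with another scaling, and there were 3 without joining the libraries. The 8 calls became 3 without joining or with cells assigned one by one, 4 at resolution 0.4 and 5 with cell cycle genes kept. In cells of 4000 to 8000 UMIs none was lower in any comparison, 2 were higher in B + A 10 than B + A 0 and 3 were higher in B + A 10 than AOS 0.

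The direction was shared more widely than the size. The ratio was below 1 for 39 of 41 members in B + A 0 to AOS 0, against 64.7% of all genes tested, and for 41 of 41 in B + A 10 to AOS 0, against 65.6%. In B + A 10 to B + A 0 it was below 1 for 30 of 38, against 54.9%. The median log2 ratios of these members were -0.27, -0.44 and -0.13, against -0.08, -0.11 and -0.03 over all genes. Ndc80, a kinetochore protein, was under the minimum in each comparison. The interval of the ratio lay below 1 for 25 of 41 members in B + A 0 to AOS 0 (15.6% of all genes), 31 of 41 in B + A 10 to AOS 0 (23.2%) and 8 of 38 in B + A 10 to B + A 0 (10.6%). It lay above 1 for none, against 6.64%, 9.92% and 7.37% of all genes.

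By role, the sum of the mitotic kinases Plk1 and Aurka with Tpx2 and Tacc3 was lower in B + A 0 than AOS 0 by a log2 ratio of -0.39 (-0.56 to -0.23). For the cytokinesis genes it was -0.38 (-0.56 to -0.20), for the kinetochore and checkpoint genes -0.35 (-0.47 to -0.24) and for the chromosome proteins -0.11 (-0.16 to -0.06). In B + A 10 to AOS 0 the mitotic kinases were at -0.56 (-0.74 to -0.39) and the anaphase-promoting complex genes at -0.52 (-0.60 to -0.43). The chromosome proteins were at -0.22 (-0.28 to -0.17). From B + A 0 to B + A 10 the kinetochore and checkpoint genes were at -0.01 (-0.14 to 0.13) and the cytokinesis genes at 0.05 (-0.16 to 0.26), so that neither differed beyond counting error.

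Of the single members in stem-like cells, Aurkb was at 45.4, 30.6 and 25.3 CPM, and its log2 ratio of -0.84 for B + A 10 to AOS 0 (-1.24 to -0.46) was the lowest of any member. Kif20b was at 27.3, 20.3 and 16.1. Hmmr, which helps assemble the spindle, was at 32.1, 24.8 and 19.0. All 3 were highest in AOS 0 and lowest in B + A 10, but none of the 3 differed between the busulfan libraries beyond counting error.

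Ube2c was at 292, 229 and 185, and Plk1 at 58.8, 45.7 and 35.4, in the same order of libraries. Birc5 was at 265, 229 and 187, and Pttg1 at 223, 194 and 168. Cdkn3 was at 28.1, 24.5 and 18.4, with a log2 ratio of -0.41 for B + A 10 to B + A 0 (-0.93 to 0.09). Aurka was at 45.6, 33.6 and 31.2, with both busulfan libraries well below AOS 0 and a log2 ratio between them of -0.11 (-0.52 to 0.30).

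Nor did the busulfan libraries differ beyond counting error in Tacc3, Nuf2, Ckap2l and Ect2, or in Bub1b, Cenpa, Cdca8 and Prc1 below. Tacc3 was at 45.6, 30.4 and 33.8, with a log2 ratio of -0.59 for B + A 0 to AOS 0 (-0.94 to -0.24). Nuf2, which ties the kinetochore to microtubules, was at 22.1, 15.0 and 14.8, and Ckap2l at 25.6, 17.7 and 21.0. Ect2, the exchange factor that starts the cleavage furrow, was at 34.9, 25.6 and 31.8.

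Bub1b, a spindle checkpoint kinase-like protein, was at 30.2, 23.0 and 27.2. Bub1b, Ckap2l and Ect2 had the highest ratios of B + A 10 to B + A 0, with log2 values of 0.24, 0.25 and 0.31, and each interval included 0. Cenpa was at 150, 115 and 118, Cdca8 at 123, 102 and 107, and Prc1 at 62.8, 46.6 and 50.2. In these 7 of the 8 members named here B + A 10 lay between B + A 0 and AOS 0, and only Nuf2 was lowest in B + A 10.

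Mki67 was at 71.0, 66.0 and 45.0, with nearly all of its difference between the busulfan libraries (log2 ratio -0.55, -0.87 to -0.24). Ncapd2 was at 30.03, 30.9 and 23.0, and Anln, an actin-binding protein of the cleavage furrow, at 16.0, 16.2 and 11.8. Those were the only members with a ratio of B + A 0 to AOS 0 above 1, and both intervals included 1.

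Some members had small differences. Ccnb2 was at 101, 99.0 and 94.2, Top2a at 259, 236 and 243, and Tubb4b at 443, 422 and 406. Hmgb2 was at 1175, 1118 and 1032, with a log2 ratio of -0.19 for B + A 10 to AOS 0 (-0.25 to -0.12). Larger differences were those of the next 5 members. Cks2 was at 381, 332 and 305, Cks1b at 181, 156 and 155, and Cenpf at 90.9, 73.7 and 69.6. Nusap1 was at 61.5, 46.9 and 42.3, and Kif23 at 33.8, 24.8 and 23.3. These last 5 were all highest in AOS 0 and lowest in B + A 10, but none of the 5 differed between the busulfan libraries beyond counting error.

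The remaining members were Cdk1, Smc4, Ccna2, Ccnb1, Cdc20, Cdca3, Tpx2, Kif11, Kif2c, Ckap2, Cenpe, Bub1 and Ndc80, each with a ratio of B + A 10 to AOS 0 below 1. Cdk1 was at 152, 134 and 105, and Smc4, the condensin core subunit, at 139, 105 and 92.2.

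**Figure D4:**
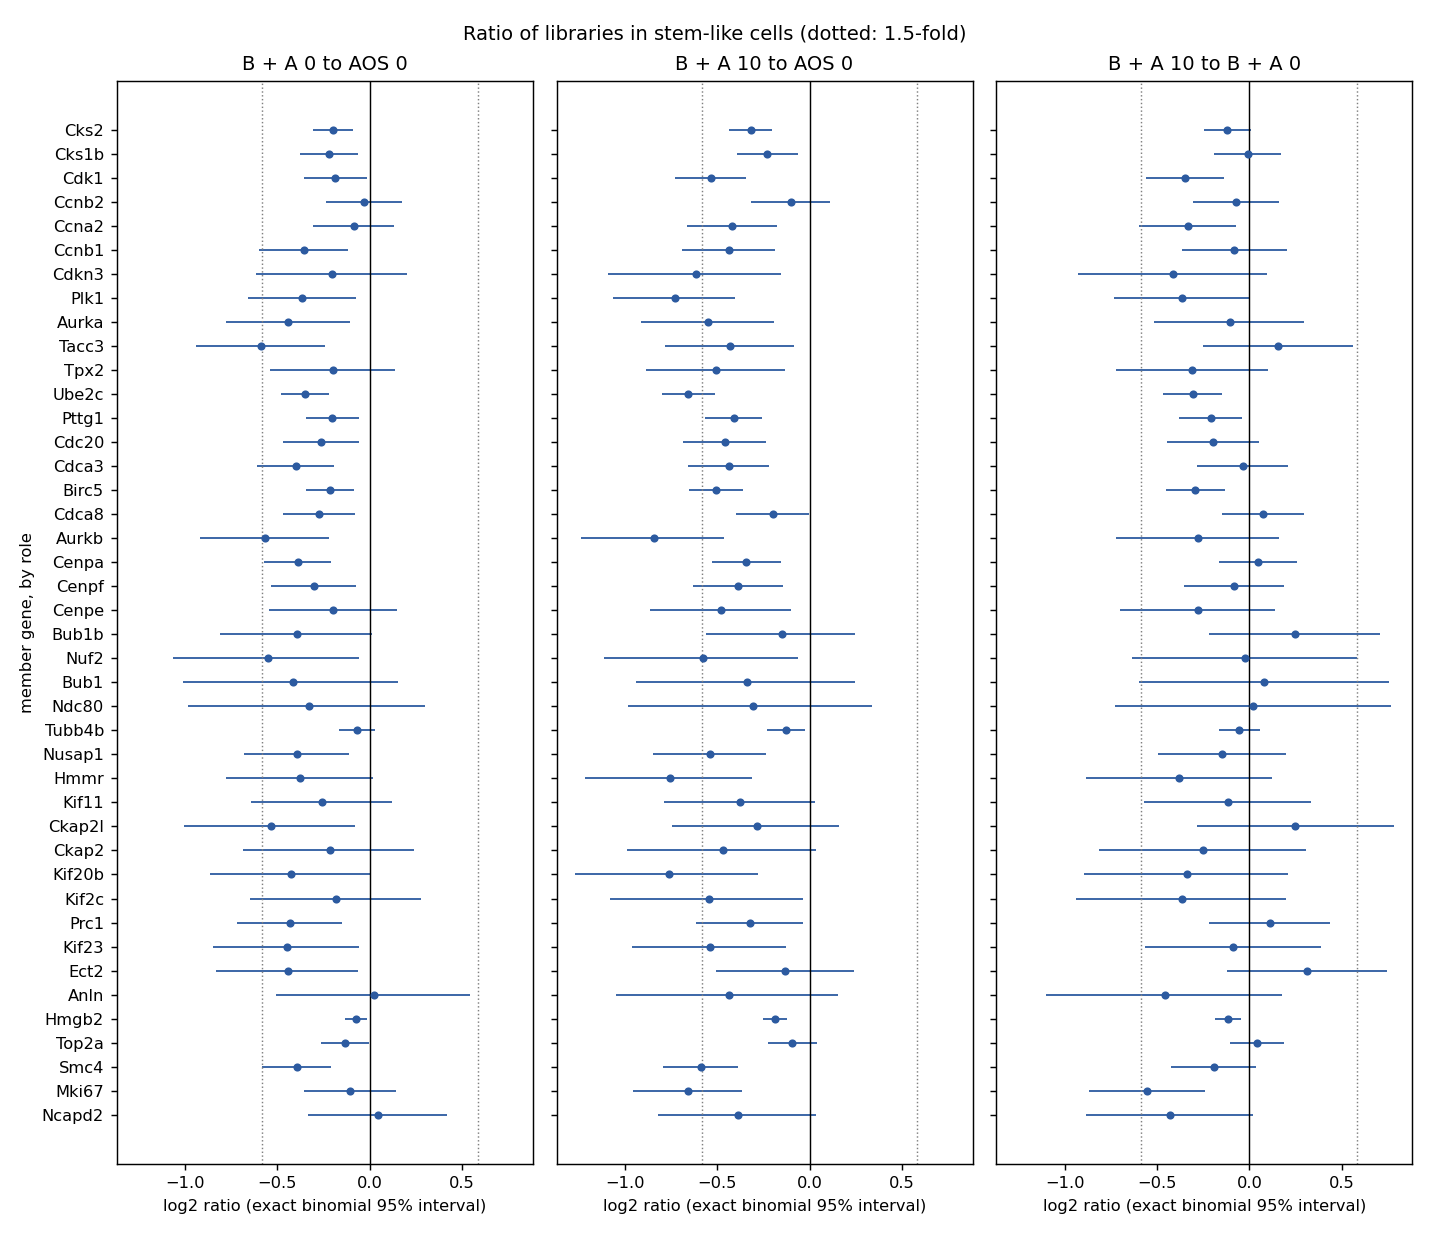
Log2 ratio of each member between libraries in stem-like cells with its exact 95% interval (counting error only), members in rows by role, and dotted lines at 1.5-fold. Points lie left of 0 for 40 of 42 members in B + A 0 to AOS 0, for all 42 in B + A 10 to AOS 0 and for 32 in B + A 10 to B + A 0.

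The library differences moved with depth. The stem-like cells of each library were split by depth into 3 parts of equal size. The deepest cells had more members per 10000 UMIs than the shallowest in each library, 60.5 against 31.5 with vehicle, 49.9 against 33.3 with busulfan and 47.3 against 26.7 with busulfan and AOS. Among the shallowest cells B + A 0 was above AOS 0 and B + A 10 below both. Among the middle cells the sums were 50.8, 46.8 and 41.7, so that the order there, as among the deepest, was that of the whole class. When only stem-like cells of 4000 to 8000 UMIs were taken, the order turned round, with sums of 37.2, 41.3 and 47.7. That range took 42.5%, 64.8% and 36.8% of the stem-like cells of the libraries, those of AOS 0 from the shallow end of their library and those of B + A 10 from the deep end. The shallowest stem-like cell of each library had 3188, 3932 and 2059 UMIs. The range of 4000 to 8000 thus began near the lowest depth with busulfan alone. Library depth and treatment cannot be told apart with 1 library per group, and the lower levels after busulfan are given with that limit.

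**Figure D5:**
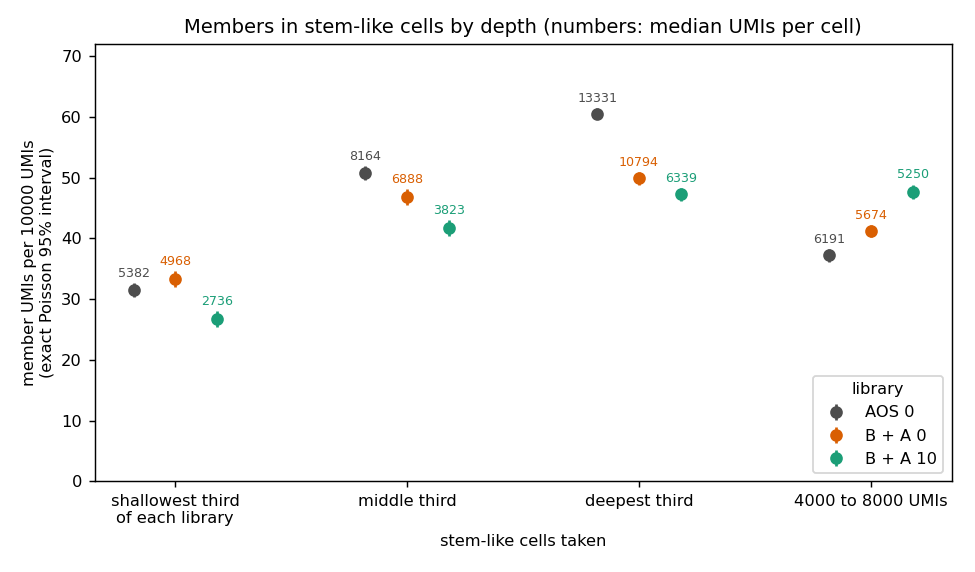
Member UMIs per 10000 UMIs in stem-like cells of each library (colors), in 3 equal parts by depth within the library and for cells of 4000 to 8000 UMIs, with exact Poisson 95% intervals and the median UMIs per cell printed above each point. AOS 0 is highest in the middle and deepest parts and lowest in the fixed range.

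RNA of other cell types in stem-like cells also differed between libraries. The summed level of 38 mature enterocyte markers was 138, 179 and 192 UMIs per 10000 across the libraries. That of 16 goblet markers was 28.6, 62.2 and 63.3, and that of 24 measured Paneth markers 40.5, 92.2 and 57.1. Their part in the member differences was not tested. The share of stem-like cells high in members was 43.6%, 38.4% and 35.1%. The difference of B + A 10 to AOS 0 was -8.50 percentage points (-14.1 to -2.87), and that of B + A 0 to AOS 0 was -5.21 (-11.4 to 1.09), which included 0. In cells of 4000 to 8000 UMIs both differences turned, to 16.6 and 7.96 points. After thinning to 2000 UMIs the first was smaller but still negative, at -2.47, and the second turned, to 4.78. The second was also positive with at least 3 member UMIs (2.65) and among the shallowest cells (5.96). At least 1 member UMI of 1000 was in 85.9%, 92.4% and 87.9% of these cells.

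The other dividing sets were lower after busulfan too, and the busulfan libraries stood in differing order. In the Ncl-led cluster the member sum was 64.1, 53.7 and 52.2 per 10000. It was 57.5, 46.4 and 42.2 in its shallowest part and 68.0, 57.5 and 55.9 in its deepest. There 36 of 39 members with enough UMIs were below 1 in B + A 0 to AOS 0 (63.5% of all genes) and 34 of 39 in B + A 10 to AOS 0 (63.0%), but 19 of 35 in B + A 10 to B + A 0 (54.3%), a share at the background. In the Rbp7- and Dmbt1-led cluster the sum was 56.6, 46.2 and 47.6. It was 59.9, 50.7 and 50.3 in its shallowest part and 54.8, 41.2 and 46.2 in its deepest. There 28 of 31 were below 1 in B + A 0 to AOS 0 (65.4%), 24 of 31 in B + A 10 to AOS 0 (64.5%) and 8 of 24 in B + A 10 to B + A 0 (54.8%). Hba-a1 was at 375 CPM in the B + A 10 cells of that cluster, against 0.36 in AOS 0 and 1.47 in B + A 0, and its part was not tested.

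Secretory progenitor-like cells had the widest spread of these 4 sets, 40.7, 33.4 and 27.9 per 10000. Their shallowest part was at 18.8, 16.7 and 15.6 and their deepest at 52.0, 42.6 and 37.9. All 35 members with enough UMIs were below 1 in B + A 0 to AOS 0 (65.5% of all genes), 32 of 32 in B + A 10 to AOS 0 (71.6%) and 24 of 27 in B + A 10 to B + A 0 (63.8%). Cdc20 was at 105, 69.5 and 59.9 CPM there, Birc5 at 235, 182 and 144, and Aurkb at 28.6, 21.0 and 15.3. The share of the class in its library was 7.62%, 9.55% and 6.71%. The share of the class's cells in the Slpi-, Creb3l1- and Spdef-led cluster, where members were higher, was not the same in each library, with 127, 110 and 103 cells beside 186, 195 and 256 in the other cluster. Within the 2 clusters the sums were 50.9, 44.2 and 41.6 and 29.7, 23.1 and 18.3, in the same order of libraries.

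Genes around the module were read from lists. Of 79 other measured G2 and mitosis genes, 54 had enough UMIs in stem-like cells of B + A 0 and AOS 0, and 45 of these were below 1 (64.7% of all genes), with a median log2 ratio of -0.19. For B + A 10 to AOS 0 it was 47 of 53 (65.6%), and for B + A 10 to B + A 0 it was 28 of 43 (54.9%). Their sum was 33.3, 29.1 and 27.4 per 10000. The 5 with most UMIs were Arl6ip1, Ube2s, 2700094K13Rik, Bub3 and Lbr. Ube2s, which elongates ubiquitin chains for the anaphase-promoting complex, was at 389, 363 and 299 CPM, and Lbr, the lamin B receptor, at 118, 112 and 134. Bub3, a checkpoint protein, was at 128, 110 and 116, and 2700094K13Rik at 206, 215 and 200. Arl6ip1, at 497, 390 and 376, was lower in stem-like than in mature enterocyte-like cells (432 against 649).

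Of the 15 brakes on G2, 8 had a lower level in stem-like than in mature enterocyte-like cells and 7 a higher one. Their sum was 3.59 per 10000 in stem-like and 7.20 in mature enterocyte-like cells, and without Cdkn1a 3.46 and 4.07. In stem-like cells the sum of all 15 was 3.65, 3.65 and 3.44. Of those with enough UMIs, 8 of 11 were below 1 in B + A 0 to AOS 0 (64.7% of all genes), 7 of 10 in B + A 10 to AOS 0 (65.6%) and 5 of 7 in B + A 10 to B + A 0 (54.9%), shares near the background at these small numbers. Sfn (14-3-3 sigma), Cdkn1a (p21), Btg2, Gadd45a and Ccng2 had the most UMIs. Cdkn1a, a target of p53 that inhibits cyclin-dependent kinases, was at 14.3, 13.3 and 12.1 CPM in stem-like cells, with a log2 ratio of -0.11 for B + A 0 to AOS 0 (-0.68 to 0.46), and at 313 in mature enterocyte-like cells. Sfn was at 118, 133 and 134. Btg2 was at 15.8, 16.8 and 8.86, Gadd45a at 20.4, 18.6 and 13.8, and Ccng2 at 7.98, 8.84 and 14.1.

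The DNA replication list differed less between libraries than the members. Its sum in stem-like cells was 44.5, 41.1 and 40.6 per 10000, a log2 ratio of -0.11 for B + A 0 to AOS 0 (-0.14 to -0.08) and -0.02 for B + A 10 to B + A 0 (-0.05 to 0.02). Of its genes, 51 of 64 were below 1 in B + A 0 to AOS 0 (64.7% of all genes), 46 of 62 in B + A 10 to AOS 0 (65.6%) and 31 of 59 in B + A 10 to B + A 0 (54.9%), the last at the background. In the promoters, TTTGAA was in 53.2% of 62 other G2 and mitosis genes, 15.1% of 53 replication genes and none of 12 brakes. CCAAT was in 59.7%, 64.2% and 75.0% of them.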

How the data were processed

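Cells of the small intestine, with Peyer's patches removed, were taken from 6 mice per group and combined, and 1 library per group was made with 10x 3' v2 chemistry. Per the labels and the study's methods, the authors aligned reads to mm10 with Cell Ranger 2.2.0, forced to 5000 cells, and normalized in Seurat after removing cells under 200 genes and genes in under 3 cells. The B + A 10 library nonetheless holds 5352 cells, more than the stated 5000, and the reason is not given. The fewest genes per cell were 309, 611 and 271, all above the stated 200. The cause of the differing lower limits of depth was not tested. The deposited values are the natural log of 1 plus scaled UMI counts. Whole UMIs were recovered from each cell's smallest value (100% of values whole within 0.01 UMI), and all levels are sums of these UMIs over a cell set, divided by the set's total. 3' UMIs count molecules, so no length scaling was applied. Group names follow the titles and treatments, because the source names of both busulfan samples contradict them.

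Cells were clustered in Seurat 5.3.0 (R 4.3.3) after joining the libraries, on 2000 variable genes without 282 cell cycle genes, 20 dimensions and resolution 0.8. A cluster was named for the class with the most markers among its 10 leading genes, at least 3, or 2 where its marker score was also highest. This naming rule was set after the clusters had been seen. Scrublet's automatic threshold marked 15 cells (0.119%) and had not worked, so no doublet was removed, and leaving out the 5% with the highest scores was an alternative. Intervals are exact Poisson (levels), exact binomial (ratios and shares) and Newcombe (differences of shares) at 95%. Ratio and interval were tested on simulated data. With 1 library per group no test was made and no p-value is given, and a called ratio is one past 1.5-fold with at least 100 UMIs over both libraries.

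All members are accounted for by role. Given in full are the 2 with most UMIs of each role, the 3 largest and 3 smallest ratios of each library comparison in stem-like cells, and the 3 largest and 3 smallest ratios of stem-like to mature enterocyte-like cells. The members and lists were chosen with earlier results of these data known. Promoters are from RefSeq (GRCm38.p6). No amino acid sequences were used here. In all, 18 alternatives were planned and 5 were chosen after seeing the data. numpy 2.4.6, scipy 1.17.1 and Python 3.11.15 were used.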

Additional observations from a re-analysis of the deposited data

Results flagged for a closer look

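Mki67 went one way in some cell sets and the other way in another. In Rbp7- and Dmbt1-led early enterocyte-like cells its log2 ratio was 0.75 for B + A 10 to B + A 0 and 0.45 for B + A 10 to AOS 0, from 177, 71 and 107 UMIs in the vehicle, busulfan and busulfan with AOS libraries. In stem-like cells the same ratios were -0.55 and -0.66, and in secretory progenitor-like cells the ratio of B + A 10 to AOS 0 was -0.81. Bub1b had a log2 ratio of B + A 10 to AOS 0 of 0.67 in the early enterocyte-like cluster, from 40 and 57 UMIs, and of -0.75 in secretory progenitor-like cells. These were picked because their 95% counting intervals lay on opposite sides of 1 among 42 members, 4 cell sets and 3 comparisons. The difference between cell sets was not tested, since each group is 1 library. The same early enterocyte-like cells of B + A 10 held the hemoglobin RNA given above, and its part was not tested.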

How the results depend on the processing

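No replicate was left out, as each group is 1 library. No paired analysis was possible because each group holds 1 library and no result comes from a test. Of 255 values recomputed under 23 alternatives, 169 stayed within the spread over libraries (class ratios), the counting interval (other ratios and shares) or 1.5 times the count. The cause of the others was not tested. All values are log2 ratios unless said otherwise.

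Stem-like over mature enterocyte-like cells (2.90) was 3.29 when scaled without ribosomal protein and defensin genes, 4.71 as the median of member ratios, 2.64 without Hmgb2 and 4.26 without Tubb4b. Secretory progenitor-like over stem-like cells (-0.43) was -0.79 with libraries clustered without joining, -0.55 at resolution 0.4, -0.72 with cells assigned one by one, -0.56 with the other scaling, -0.55 as a mean over cells, -0.54 with the Ncl-led cluster counted as stem-like and -0.86 in cells of 4000 to 8000 UMIs. Early enterocyte-like over stem-like cells (-0.69) was, for the same first 3 settings, -1.54, -0.62 and -1.08, and -2.28 with cell cycle genes kept in the clustering, -0.87 with the other scaling, -0.60 as a mean over cells, -0.89 as a median, -0.60 without Hmgb2, -0.83 without Tubb4b and -0.80 with the Ncl-led cluster.

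In stem-like cells, B + A 0 to AOS 0 (-0.20) was -0.17 with the other scaling, -0.13 as a mean over cells, -0.29 as a median and -0.24 without Hmgb2. B + A 10 to B + A 0 (-0.13) was -0.050 without joining, -0.075 at resolution 0.4, -0.092 with cells assigned one by one, -0.17 as a mean over cells and -0.075 with the Ncl-led cluster. B + A 10 to AOS 0 (-0.33) was -0.24 without joining, -0.27 with cells assigned one by one, -0.28 with the other scaling, -0.44 as a median and -0.37 without Hmgb2. In cells of 4000 to 8000 UMIs all 3 reversed, to 0.15, 0.21 and 0.36. In the shallowest of 3 equal parts of each library they were 0.081, which is reversed, -0.32 and -0.24. In the deepest part the first was -0.28 and the second -0.079. In all cells, B + A 0 to AOS 0 (-0.30) was -0.19 with the other scaling, -0.19 as a mean, -0.37 as a median and -0.33 without Tubb4b. B + A 10 to B + A 0 (-0.053) was -0.12 with the other scaling and -0.16 as a mean. B + A 10 to AOS 0 (-0.36) was -0.31 with the other scaling, -0.44 as a median, -0.37 without Hmgb2 and -0.40 without Tubb4b.

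The share of high stem-like cells, B + A 0 minus AOS 0 (-5.21 percentage points), was 2.65 with at least 3 member UMIs, 4.78 after thinning to 2000 UMIs, 7.96 in cells of 4000 to 8000 UMIs, 5.96 in the shallowest and -18.7 in the deepest part. B + A 10 minus B + A 0 (-3.28) was 8.60 in cells of 4000 to 8000 UMIs and -9.98 in the shallowest part. B + A 10 minus AOS 0 (-8.50) was -2.47 after thinning to 2000 UMIs, 16.6 and so reversed in cells of 4000 to 8000 UMIs, and -19.2 in the deepest part.

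Members past the fold and lower, B + A 0 to AOS 0 (1), were 3 without joining, 0 at resolution 0.4, 0 with cell cycle genes kept, 0 with cells assigned one by one, 0 with the other scaling, 19 at a ratio of 5 to 4, 0 at a fold of 2, 0 in cells of 4000 to 8000 UMIs and 6 in the deepest part. B + A 10 to B + A 0 (0) gave 9 at a ratio of 5 to 4 and 2 in the shallowest part. B + A 10 to AOS 0 (8) gave 3 without joining, 4 at resolution 0.4, 5 with cell cycle genes kept, 3 with cells assigned one by one, 31 at a ratio of 5 to 4, 0 at a fold of 2, 4 with at least 300 UMIs, 5 with the Ncl-led cluster, 0 in cells of 4000 to 8000 UMIs and 1 in the shallowest part. Counts of members past the fold and higher (0 in each comparison) were recomputed under 16 of the 23 alternatives. They were 2 for B + A 10 to B + A 0 and 3 for B + A 10 to AOS 0 in cells of 4000 to 8000 UMIs and 0 in the rest.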

Other observations

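The T cell-like class held 1 cluster of 315 cells, led by Gzma, Gzmb and Cd7, at 38.6 member UMIs per 10000, with 41.7, 39.1 and 34.4 in the 3 libraries. The other T cell-like cluster, of 64 cells, was at 9.16 and held 8757 CPM of the goblet gene Muc2. Over both clusters Nusap1 had the highest ratio to its stem-like level of the members, at 55.9 CPM in T cell-like and 51.9 in stem-like cells, and Hmgb2 was at 868 against 1119. Enteroendocrine-like cells, 160 in all, had their lowest member level in AOS 0, at 19.3 per 10000 (17.98 to 20.8) against 27.3 in B + A 0 (25.3 to 29.5) and 26.3 in B + A 10 (24.4 to 28.3). The share of high cells among them was 7.69%, 8.82% and 16.4%, from 65, 34 and 61 cells, and the intervals of its 3 differences included 0. Those 5, 3 and 10 high cells held 55.4%, 33.7% and 66.7% of the member UMIs of the class, so few cells set its sums.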
